A study of Mus musculus with 30 samples.

Results

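The levels of 10 genes of the cardiac intercalated disc were followed in 30 mouse hearts. The genes were the rows of the count table whose GENCODE mouse symbol is Gja1, Gja5, Gjc1, Dsp, Dsg2, Dsc2, Pkp2, Jup, Cdh2 or Tjp1, which is 10 of 55487 genes. All 10 were found, and all 10 had enough counts to be tested in every comparison.

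The intercalated disc is the specialised end of a heart muscle cell where it meets its neighbour. Gap junctions built of connexins let the electrical impulse pass from cell to cell there, while desmosomes and N-cadherin junctions tie the cytoskeletons of neighbouring cells together against the pull of each beat. Loss of Gja1 protein from the disc is a known feature of failing hearts, and inherited defects of desmosomal proteins cause arrhythmogenic cardiomyopathy.

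Surgery was either transverse aortic constriction (TAC), in which a clip on the aorta raises the pressure load, or a sham, and the hearts were taken 8 weeks later. The floxed cohort had 4 groups of 4 hearts. FF_sham and FF_TAC carried the genotype CPT1a floxed. KO_sham and KO_TAC were cardiac specific CPT1a knockouts, which the series design calls a knockdown; the driver of the deletion is not named in the sources used here. The AAV9 cohort was C57Bl/6. PBS_sham and PBS_TAC had 3 hearts each and received saline, so no empty vector stands as the control. AAV_sham and AAV_TAC had 4 hearts each and received AAV9.Cpt1a, in which a cardiac troponin T promoter drives Cpt1a in heart muscle cells. The age at surgery is not given in the sources used here, nor which clip size each mouse received. Cpt1a encodes a carnitine palmitoyltransferase of the outer mitochondrial membrane, which starts the import of fatty acids for oxidation, and per the series design the study asked what its rise does in the pressure-loaded heart.

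Levels are given as CPM, counts relative to the library size after TMM scaling, and a gene was called changed at an adjusted p under 0.05 in edgeR's quasi-likelihood test. Library totals ran from 14839758 to 22070373 counts, and the smallest count of a member in any library was 27, for Gja5. Heart muscle markers were abundant in every library, with the 8 markers (Myh6, Tnnt2, Actn2 and others) summing to between 26541 and 65931 CPM. The targeted gene, Cpt1a, had 38.6, 44.3, 53.5 and 46.8 CPM in FF_sham, 49.9, 21.0, 16.7 and 34.9 in FF_TAC, 23.1, 46.8, 20.9 and 23.8 in KO_sham, and 19.8, 11.9, 14.4 and 11.3 in KO_TAC. Among sham-operated AAV9 cohort hearts, saline gave 36.7 to 70.01 CPM and the vector 54.9 to 85.9 CPM of Cpt1a. After TAC the ranges were 39.5 to 59.1 CPM with saline and 43.8 to 61.5 CPM with the vector, so the vector groups overlapped their saline groups. The library labelled KO_sham 2 lay among the floxed controls, and the libraries labelled FF_TAC 2 and FF_TAC 3 lay among the knockouts. Directions below rest on these labels. The calls of members are also given without these 3 libraries, and the calls of other genes are given only with them.

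Further libraries stood apart. Myl7, a myosin light chain gene that marks atrial muscle, was at or above 100 CPM in 11 of the 30 libraries. Summed haemoglobin transcripts were under 100 CPM in 7 libraries, namely all 4 of KO_TAC, FF_TAC 2 and 3, and KO_sham 2 as labelled. PBS_sham 3 had 26541 CPM of summed heart muscle markers against 49254 and 62745 in the other PBS_sham libraries. It also had 2403 CPM of summed smooth muscle and pericyte markers and 1737 of endothelial markers, each the highest of all 30 libraries.

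**Figure D1:**
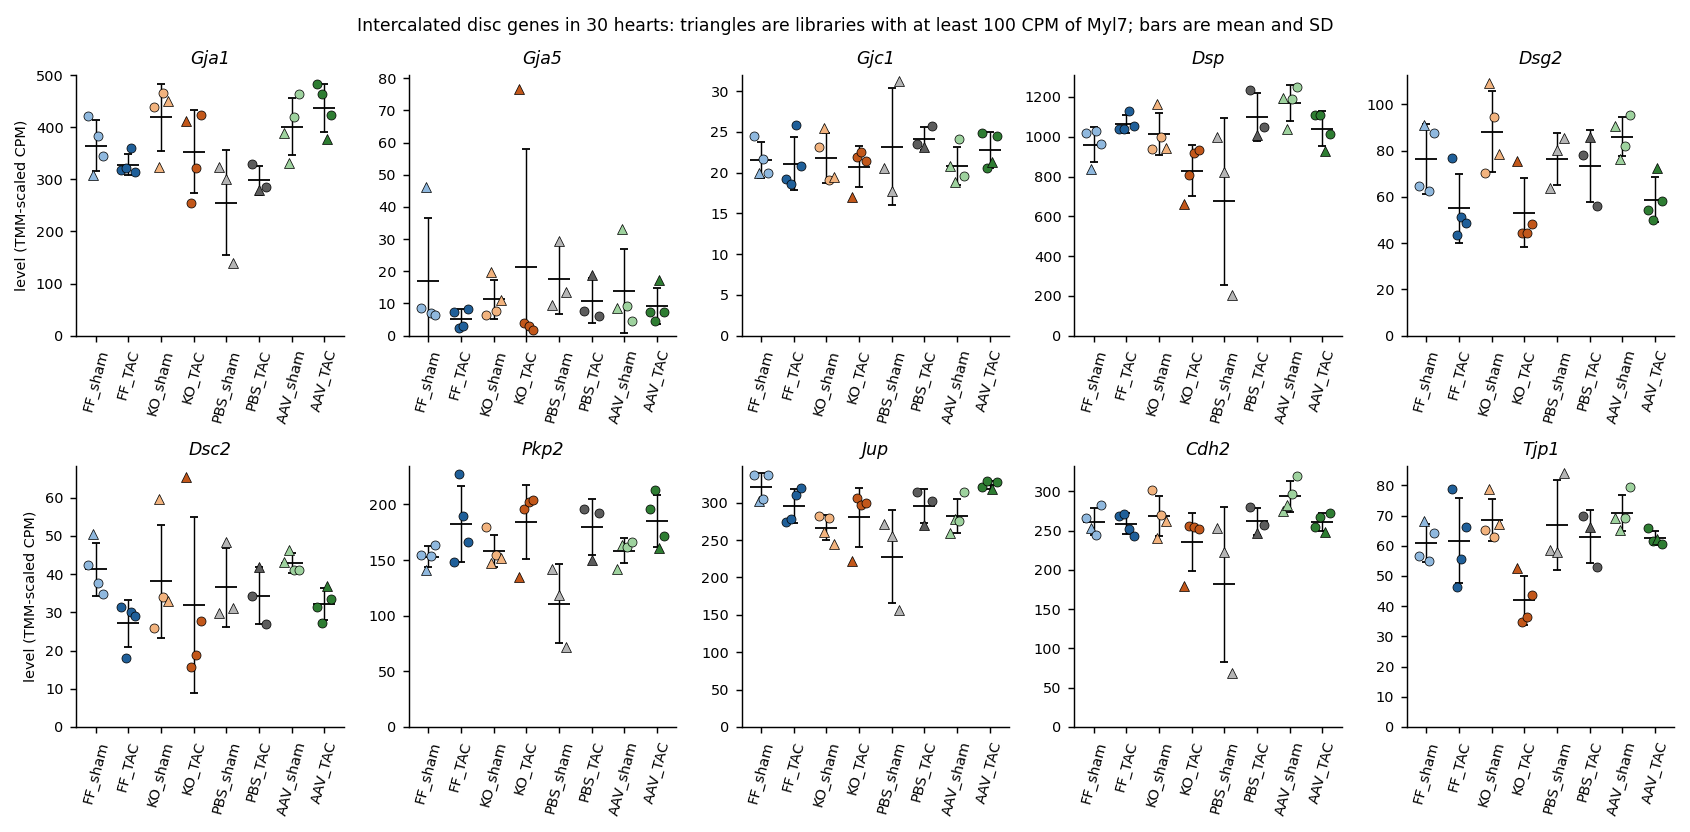
Level of each of the 10 genes in every heart, in TMM-scaled CPM, by group. Each point is 1 library, triangles mark the 11 libraries with at least 100 CPM of Myl7, and the horizontal bars show the mean and SD. Tjp1 sits lowest in KO_TAC, and Gja5 has single high triangles in several groups, up to 76.5 CPM.

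Members were called changed in 2 of the 10 comparisons. TAC in the knockout gave 2 called members of 10, Tjp1 and Dsg2, both lower in KO_TAC than in KO_sham. Over all 15596 genes tested there, 25.8% were called (14.3% higher and 11.5% lower), so a count of 2 in 10 is near the background. The comparison of KO_TAC with FF_TAC gave 1 called member, Tjp1, against 14.3% of all genes called (7.53% higher and 6.8% lower). The median log2 fold change of the members was -0.21 for KO_TAC against KO_sham, beside 0.02 over all genes, and -0.01 for KO_TAC against FF_TAC, beside 0.04 over all genes. These contrasts share the KO_TAC libraries.

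No member was called in the other 8 comparisons by edgeR. At an unadjusted p under 0.05 there was 1 member for FF_TAC against FF_sham, 1 for KO_sham against FF_sham, 2 for the interaction of knockout and TAC, 1 for PBS_TAC against PBS_sham, 2 for AAV_TAC against AAV_sham, 3 for AAV_sham against PBS_sham, 1 for AAV_TAC against PBS_TAC and 0 for the interaction of vector and TAC. The shares of all genes under that unadjusted limit were 11%, 5.12%, 13.1%, 18.4%, 7.01%, 20.6%, 3.2% and 6.9% in the same order. The shares of all genes called were 0.0%, 0.0%, 0.0449%, 0.0318%, 0.00635%, 0.0127%, 0.0381% and 0.00635%, again in that order. DESeq2 called 0 members in each of the 8. limma voom with sample weights called 0 except for 1 in the interaction of knockout and TAC (Tjp1) and 1 for AAV_TAC against AAV_sham (Dsg2).

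**Figure D2:**
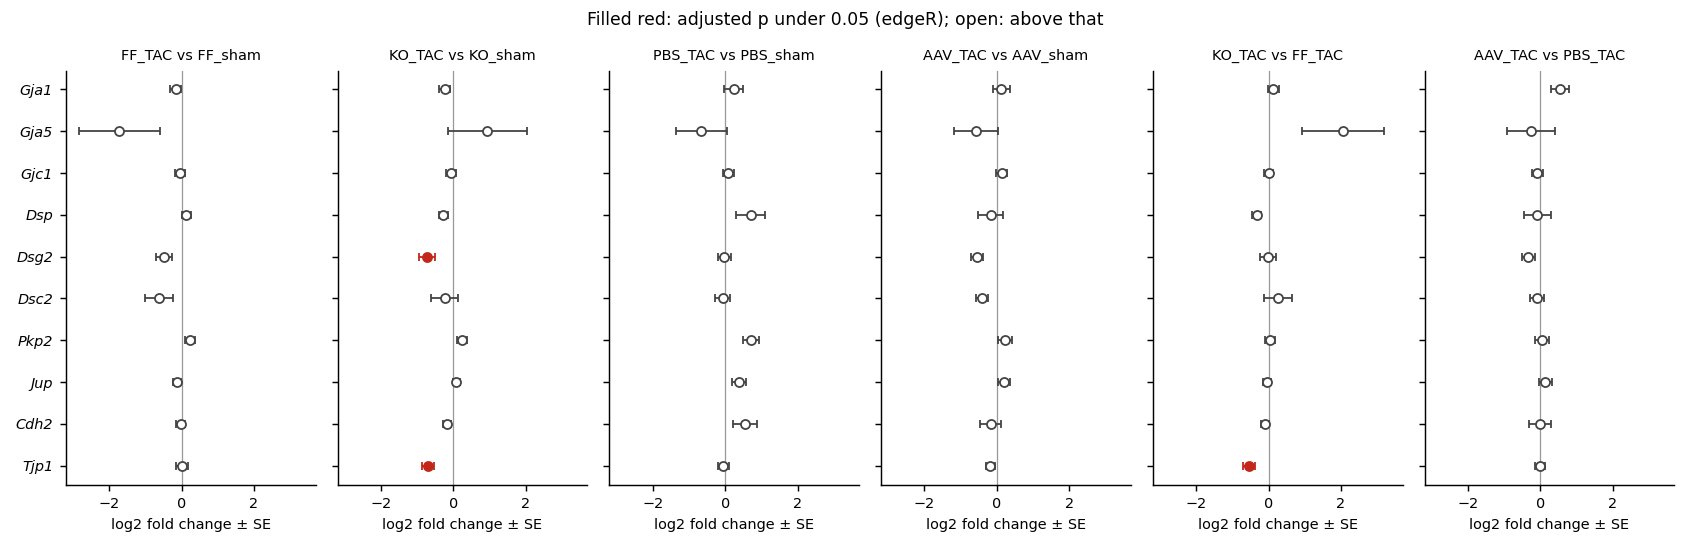
Log2 fold change and standard error of the 10 genes in 6 comparisons from the edgeR fits of the 2 cohorts. Filled red points passed an adjusted p of 0.05; these are Dsg2 and Tjp1 for KO_TAC against KO_sham and Tjp1 for KO_TAC against FF_TAC. Gja5 has the widest bars.

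Tjp1 encodes ZO-1, a scaffold protein that lines the edge of gap junction plaques, binds the tail of the Gja1 protein and limits how hemichannels join the plaque. Its gene (ENSMUSG00000030516) lies on chr7:65296165-65527781 of GRCm38, minus strand. Tjp1 stood at 65.3, 78.8, 63.0 and 67.1 CPM in KO_sham and at 52.6, 34.9, 36.5 and 43.8 CPM in KO_TAC. Every KO_TAC heart was below every KO_sham heart. It fell 1.62-fold (log2 fold change -0.70, SE 0.16, adjusted p 0.00848). In the floxed controls Tjp1 had 56.6, 68.4, 54.9 and 64.2 CPM after sham surgery and 78.9, 46.5, 55.5 and 66.1 CPM after TAC (log2 fold change 0.00, SE 0.16, adjusted p 0.996). The FF groups overlapped in full, and the FF_TAC hearts spanned the FF_sham range on both sides. The difference between the TAC effects, the interaction, was -0.70 (SE 0.23) with an adjusted p of 0.204, and so was not called.

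Tjp1 was also lower in KO_TAC than in FF_TAC, 1.45-fold (log2 fold change -0.53, SE 0.16, adjusted p 0.039). There the groups overlapped, since KO_TAC 1 at 52.6 CPM exceeded FF_TAC 2 at 46.5 CPM. The call against KO_sham held in all 8 fits that each left out 1 library (adjusted p 0.00168 to 0.0346). The call against FF_TAC was lost in 5 of 8 such fits, without FF_TAC 1 or 4 or without KO_TAC 2, 3 or 4 (adjusted p 0.051 to 0.135).

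Without the libraries labelled KO_sham 2, FF_TAC 2 and FF_TAC 3, Tjp1 remained called for KO_TAC against KO_sham (-0.63, adjusted p 0.00864) and for KO_TAC against FF_TAC (-0.78, adjusted p 0.0049). Its interaction was then called as well (-0.87, adjusted p 0.0383), on 2 FF_TAC and 3 KO_sham hearts. With a term for the haemoglobin-low libraries, which include all of KO_TAC, the log2 fold changes were -0.59 (adjusted p 0.128) and -0.44 (adjusted p 0.165), and neither was called. Inside FF_TAC the haemoglobin-low hearts had 46.5 and 55.5 CPM of Tjp1 and the others 66.1 and 78.9, whereas the haemoglobin-low library labelled KO_sham 2 had 78.8 CPM, the highest of its group. Among haemoglobin-low hearts alone, KO_TAC against FF_TAC gave -0.28 (adjusted p 0.72).

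Endothelial cells also make ZO-1. The 7 endothelial markers summed to between 539 and 755 CPM in KO_TAC, below the 788 to 988 CPM of KO_sham and the 808 to 1090 CPM of FF_TAC, with no marker at 0. The 6 fibroblast markers, also with none at 0, summed to between 1842 and 2400 CPM in KO_TAC, against 903 to 1299 in KO_sham and 995 to 1128 in FF_TAC. Summed heart muscle markers were 52856 to 58030 CPM in KO_sham and 56147 to 64209 CPM in FF_TAC. KO_TAC 1, 3 and 4 lay below both ranges, at 45744, 49676 and 46747 CPM, and KO_TAC 2 above both, at 65931 CPM. The part of these shifts in the Tjp1 result was not tested, and in a bulk sample fewer cells of a type and less RNA per cell cannot be told apart.

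In the AAV9 cohort Tjp1 had 69.2, 65.4, 69.4 and 79.3 CPM in AAV_sham and 65.7, 61.6, 62.2 and 60.7 CPM in AAV_TAC (log2 fold change -0.18, SE 0.13, adjusted p 0.873). The highest AAV_TAC heart just exceeded the lowest AAV_sham heart. In the saline mice it had 58.6, 57.8 and 84.0 CPM after sham surgery and 69.97, 66.2 and 53 CPM after TAC, and these groups overlapped.

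The 250 bases upstream of the RefSeq start of Tjp1 (GRCm38.p6, chr7:65371245-65371494, minus strand) are shown because Tjp1 was the member called in both comparisons. This start lies inside the GENCODE gene, which begins farther upstream. The stretch is 63.2% G and C with 22 CpG, beside a median of 52.4% over all 32851 RefSeq promoters of that length. Neither AGGTGT, the core of T-box factor sites, nor AAGTG, the core of NKX2-5 sites, was found in it on either strand.
Tjp1: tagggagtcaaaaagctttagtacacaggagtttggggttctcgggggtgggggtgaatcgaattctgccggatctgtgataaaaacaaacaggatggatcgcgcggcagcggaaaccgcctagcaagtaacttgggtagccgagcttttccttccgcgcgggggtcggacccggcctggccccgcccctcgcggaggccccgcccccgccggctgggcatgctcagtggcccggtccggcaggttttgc

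Dsg2 encodes desmoglein 2, the desmosomal cadherin whose outer part reaches across to the next cell (ENSMUSG00000044393, chr18:20558074-20604521, plus strand). It had 70.4, 109, 94.8 and 78.5 CPM in KO_sham and 75.4, 44.3, 44.6 and 48.2 CPM in KO_TAC. KO_TAC 1 lay inside the KO_sham range and the other 3 KO_TAC hearts lay below it. Dsg2 fell 1.65-fold (log2 fold change -0.72, SE 0.22, adjusted p 0.0265). This call was lost in 5 of 8 fits that each left out 1 library, namely without KO_sham 2 or 3 or without KO_TAC 2, 3 or 4 (adjusted p 0.0546 to 0.0841), and with the haemoglobin term (-0.70, adjusted p 0.179). It was also lost without the 3 libraries at odds with Cpt1a (-0.61, adjusted p 0.0675). Without KO_TAC 1, the heart with the most Myl7, it was -0.95 (adjusted p 0.003).

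Dsg2 was lower on average after TAC in 2 more pairs of groups, without a call. In FF_sham it had 64.7, 91.2, 62.4 and 87.5 CPM and in FF_TAC 76.9, 43.4, 51.3 and 48.5 CPM (log2 fold change -0.49, SE 0.22, unadjusted p 0.0393, adjusted p 0.439). FF_TAC 1 was inside the sham range and the other 3 were below it. In AAV_sham it had 90.5, 76.5, 81.8 and 95.4 CPM and in AAV_TAC 54.4, 49.9, 72.4 and 58.3 CPM, with every AAV_TAC heart below every AAV_sham heart (-0.55, SE 0.16, unadjusted p 0.00406, adjusted p 0.329). In the saline pair the means were close, with 63.9, 80.3 and 85.3 CPM in PBS_sham and 78.3, 86.0 and 56.2 CPM in PBS_TAC (-0.03, SE 0.18, adjusted p 0.936; 0.03 without PBS_sham 3). The interactions were -0.23 (SE 0.31, adjusted p 0.767) for the knockout and -0.52 (SE 0.24, adjusted p 0.69) for the vector.

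By level of Myl7, the median of Dsg2 was 80.3 CPM (range 63.9 to 109) in the 11 libraries with at least 100 CPM of Myl7 and 58.3 CPM (43.4 to 95.4) in the other 19. Surgery was uneven over this split, with 8 of the 11 and 7 of the 19 libraries from sham hearts. In FF_sham, FF_TAC, KO_sham, KO_TAC, PBS_TAC and AAV_TAC, the heart with the most Myl7 also had the most Dsg2. This was not so in PBS_sham and AAV_sham, and within groups Dsg2 did not always follow Myl7. AAV_sham 2 had the most Myl7 of its group (888 CPM) and the least Dsg2 (76.5 CPM), and KO_sham 4, with 395 CPM of Myl7, had less Dsg2 than KO_sham 3, with 0.373 CPM (78.5 against 94.8 CPM). Only libraries under 100 CPM of Myl7 gave -0.71 (adjusted p 0.0439) for AAV_TAC against AAV_sham, on 3 and 2 hearts. Exons of Dsg2 share 330 bases with an opposite-strand gene, Gm16090, which had at most 5 counts in any library.

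Dsc2 encodes desmocollin 2, the partner cadherin of Dsg2 in the desmosome (ENSMUSG00000024331, chr18:20030633-20059554, minus strand). After TAC in the floxed controls it had 31.4, 17.9, 30.1 and 28.9 CPM, all below the 42.3, 50.5, 37.6 and 34.7 CPM of FF_sham (log2 fold change -0.62, SE 0.38, adjusted p 0.546). AAV_TAC, at 31.3, 27.1, 36.9 and 33.4 CPM, was likewise wholly below AAV_sham, at 43.1, 46.4, 41.0 and 41.1 CPM (-0.41, SE 0.18, unadjusted p 0.036, adjusted p 0.651). Neither was called by edgeR over the whole cohort, and the AAV9 difference passed when only its 2 groups were fitted (-0.42, adjusted p 0.0499). In the knockout the values were 25.9, 59.7, 34 and 33 CPM after sham surgery and 65.5, 15.6, 18.8 and 27.8 CPM after TAC (-0.24, SE 0.38, adjusted p 0.656). The top hearts of these knockout groups had 609 CPM (sham) and 3170.2 CPM (TAC) of Myl7. Without KO_TAC 1 the value was -0.88 and passed the threshold (adjusted p 0.0246), while without the library labelled KO_sham 2 it was 0.05 (adjusted p 0.933). limma voom with sample weights called it (-0.69, adjusted p 0.0212). The median of Dsc2 was 43.1 CPM in the 11 libraries with at least 100 CPM of Myl7 and 31.3 CPM in the other 19, over the same uneven split of surgery. Within every group of both cohorts, the heart with the most Myl7 also had the most Dsc2.

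Groups did not overlap for 2 of 10 members in FF_TAC against FF_sham (Dsp and Dsc2), where 6.13% of all genes did not. For AAV_TAC against AAV_sham this was so for 4 members (Dsg2, Dsc2 and Cdh2 lower, Jup higher), with 10.3% over all genes. For KO_TAC against KO_sham it was 2 members, Dsp and Tjp1, with 23.0% over all genes, and for KO_TAC against FF_TAC 1 member, Dsp, with 13.7%.

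Dsp encodes desmoplakin, which anchors the desmosomal plaque to desmin filaments (ENSMUSG00000054889, chr13:38151294-38198577, plus strand). It had 1017, 836, 1027 and 963 CPM in FF_sham and 1037, 1038, 1131 and 1052 CPM in FF_TAC. In KO_sham it had 939, 1166, 1000.2 and 944 CPM and in KO_TAC 659.6, 809, 917 and 934 CPM. All FF_TAC hearts were above all FF_sham hearts, and all KO_TAC hearts were below all KO_sham hearts and all FF_TAC hearts, though by small steps. In edgeR no Dsp difference was called: FF_TAC against FF_sham gave 0.13 (SE 0.12, adjusted p 0.667), KO_TAC against KO_sham -0.28 (SE 0.12, adjusted p 0.0885) and KO_TAC against FF_TAC -0.34 (SE 0.12, adjusted p 0.0665). The interaction was -0.41 (SE 0.17, unadjusted p 0.0252, adjusted p 0.303). With a filter at a mean of 5 CPM, which leaves fewer genes to adjust over, Dsp passed for KO_TAC against KO_sham (-0.32, adjusted p 0.0354) and against FF_TAC (-0.35, adjusted p 0.0348). The latter was also called without KO_TAC 4 (-0.40, adjusted p 0.0369) and by DESeq2 (-0.34, adjusted p 0.0268). With the haemoglobin term the falls were larger but not called, at -0.39 (adjusted p 0.172) against KO_sham and -0.41 (adjusted p 0.0741) against FF_TAC. Some other fits gave smaller values and no call. Without KO_TAC 1, the lowest heart at 659.6 CPM, they were -0.19 (adjusted p 0.144) against KO_sham and -0.25 (adjusted p 0.0848) against FF_TAC. Libraries under 100 CPM of Myl7 gave -0.12 (adjusted p 0.402) and -0.25 (adjusted p 0.0669), and limma voom -0.14 (adjusted p 0.168) and -0.24 (adjusted p 0.0623).

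Pkp2 encodes plakophilin 2, a plaque protein that links the desmosomal cadherins to desmoplakin and also helps to hold Gja1 at the disc (ENSMUSG00000041957, chr16:16213318-16272712, plus strand). It had 155, 141, 153 and 163 CPM in FF_sham, 148, 227, 189 and 166 CPM in FF_TAC, 179.6, 147, 155 and 152 CPM in KO_sham, and 135, 196, 203 and 204 CPM in KO_TAC. In each of these TAC groups 3 of 4 hearts lay above all of FF_sham. TAC gave log2 fold changes of 0.24 (SE 0.14, adjusted p 0.537) in the controls and 0.23 (SE 0.14, adjusted p 0.236) in the knockout. Without KO_TAC 1, at 135 CPM the lowest of its group, the latter was 0.34 and passed the threshold (adjusted p 0.0344), as it did in limma voom (0.33, adjusted p 0.011). With the haemoglobin term it was 0.09 (adjusted p 0.806). Without KO_sham 2, FF_TAC 2 and FF_TAC 3 it was 0.18 (adjusted p 0.344). In FF_TAC the haemoglobin-low hearts, FF_TAC 2 and 3, had 227 and 189 CPM, and FF_TAC 1 and 4 had 148 and 166 CPM. AAV_TAC against AAV_sham gave 0.23 (SE 0.19, adjusted p 0.915), from 142, 164, 162 and 166 CPM to 196, 213, 161 and 172 CPM.

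Jup encodes plakoglobin, a catenin found in both desmosomes and adherens junctions (ENSMUSG00000001552, chr11:100368958-100397763, minus strand). It had 337, 302, 305 and 338 CPM in FF_sham and 282, 260.3, 279 and 245 CPM in KO_sham, with no overlap (log2 fold change -0.27, SE 0.11, unadjusted p 0.0221, adjusted p 0.945). It was the 1 member of 10 without overlap in this comparison, where 6.59% of all genes did not overlap. After TAC the genotypes had 275, 278, 311 and 320.1 CPM in FF_TAC and 222, 306, 296 and 299 CPM in KO_TAC, which overlapped (-0.05, SE 0.11, adjusted p 0.763). AAV_TAC, at 321, 329, 319 and 327 CPM, was above AAV_sham, at 259, 278, 276 and 314 CPM (0.20, SE 0.17, adjusted p 0.916).

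Cdh2 encodes N-cadherin, the adherens junction cadherin of heart muscle (ENSMUSG00000024304, chr18:16588877-16809246, minus strand). In the floxed cohort it varied little, at 266, 253, 244 and 283 CPM in FF_sham, 269, 272, 252 and 244 in FF_TAC, 302, 241, 270.0 and 262 in KO_sham, and 180.1, 257, 254 and 253 in KO_TAC. KO_TAC 1 lay apart, and the other 15 hearts spanned 241 to 302 CPM. The TAC effect was -0.03 (SE 0.11, adjusted p 0.925) in the controls and -0.18 (SE 0.11, adjusted p 0.243) in the knockout. AAV_TAC, at 255, 268, 248 and 273 CPM, lay just below AAV_sham, at 275, 283, 297 and 320.1 CPM (-0.17, SE 0.29, adjusted p 0.992).

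Among the connexins, Gja1 encodes connexin 43, the main gap junction protein of working ventricular muscle (ENSMUSG00000050953, chr10:56377330-56402513, plus strand). It had 422, 308, 383 and 345 CPM in FF_sham and 317, 322, 359 and 314 CPM in FF_TAC. In KO_sham it had 438, 324, 465 and 449.9 CPM and in KO_TAC 412, 255, 322 and 423 CPM. The TAC groups overlapped their sham groups in both genotypes, and the log2 fold changes were -0.17 (SE 0.16, adjusted p 0.682) and -0.24 (SE 0.16, adjusted p 0.265). limma voom with sample weights, which gives less weight to libraries that stand apart, called the latter (-0.42, adjusted p 0.00819). The interaction gave -0.07 (SE 0.22) and was not called (adjusted p 0.909).

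In the AAV9 cohort Gja1 was higher in the vector groups without passing the threshold. AAV_TAC hearts had 482, 463, 378 and 422 CPM and PBS_TAC hearts 329, 279 and 286 CPM. Every AAV_TAC heart exceeded every PBS_TAC heart, with a log2 fold change of 0.54 (SE 0.25, unadjusted p 0.048, adjusted p 1.0), and 0.49 to 0.62 when each library was left out in turn. Gja1 and Jup were the 2 of 10 members without overlap there, where 8.33% of all genes did not overlap. AAV_sham hearts had 389, 332, 419 and 463 CPM, above PBS_sham at 324, 300.5 and 139 CPM (0.66, SE 0.25, adjusted p 0.19). Without PBS_sham 3 that difference was 0.35 (adjusted p 0.334), so its size rests largely on that library.

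Gja5 encodes connexin 40, the gap junction protein of atrial muscle, of the fast conduction system and of arterial endothelium (ENSMUSG00000057123, chr3:96904693-97077416, plus strand). Exons of Gja5 share 165 bases with Gpr89 on the opposite strand, and since the strand setting of the counting is not given, its values are uncertain. Gpr89 itself varied little, from 7.72 to 14.9 CPM. Gja5 had 8.60, 46.3, 6.99 and 6.28 CPM in FF_sham, 7.50, 2.24, 2.91 and 8.28 in FF_TAC, 6.54, 19.7, 7.68 and 11.2 in KO_sham, and 76.5, 3.85, 2.94 and 1.63 in KO_TAC. In 7 of the 8 groups, all but FF_TAC, the heart with the most Gja5 was one with at least 100 CPM of Myl7. Every PBS_sham library and no FF_TAC library reached that level, so the outcome was fixed in these groups. KO_TAC 1, with 76.5 CPM of Gja5, had 3170.2 CPM of Myl7 and 1108 CPM of Sln (sarcolipin, another atrial transcript), while the other 3 KO_TAC hearts had at most 0.756 CPM of Myl7.

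In the saline and vector mice Gja5 had 9.40, 29.5 and 13.5 CPM in PBS_sham, 7.65, 19.0 and 6.13 in PBS_TAC, 8.67, 33.1, 9.06 and 4.64 in AAV_sham, and 7.41, 4.69, 17.4 and 7.42 in AAV_TAC. Over all 30 libraries, Gja5 had a median of 19.0 CPM (8.67 to 76.5) where Myl7 was at least 100 CPM and of 6.54 CPM (1.63 to 9.06) in the other 19. Some of its fold changes turned with these hearts. KO_TAC against KO_sham gave 0.94 (SE 1.08, adjusted p 0.537) over all hearts and -1.35 (adjusted p 0.0725) in libraries under 100 CPM of Myl7. KO_TAC against FF_TAC gave 2.05 (SE 1.13, adjusted p 0.236) and -0.91 (adjusted p 0.159) in the same way. FF_TAC against FF_sham kept its sign, at -1.72 (SE 1.13, adjusted p 0.565) and -0.48 (adjusted p 0.704). AAV_TAC against AAV_sham also kept its sign, at -0.59 (SE 0.61, adjusted p 0.96) and -0.07 (adjusted p 0.932). In the libraries under 100 CPM, Gja5 averaged 7.29 ± 1.19 CPM in FF_sham (SD, n = 3), 5.23 ± 3.10 in FF_TAC (SD, n = 4), 7.11 ± 0.805 in KO_sham (SD, n = 2) and 2.81 ± 1.12 in KO_TAC (SD, n = 3).

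The 2 libraries of FF_TAC with the lowest Gja5, at 2.24 and 2.91 CPM, were those low in haemoglobin and in Cpt1a. They were also lowest in Gja4, the connexin 37 gene of arterial endothelium, at 2.86 and 2.84 CPM against 12.3 and 9.98 CPM in the other FF_TAC hearts. Gja4 was 5.14, 7.69 and 4.04 CPM in the 3 KO_TAC hearts with low Gja5, and 8.14 CPM in KO_TAC 1, which had 76.5 CPM of Gja5. The library labelled KO_sham 2 had the most Gja5 of its group (19.7 CPM) and the least Gja4 (6.65 CPM). The list of 6 arterial endothelial markers, which includes Gja4, did not follow it in FF_TAC. Its sum was 113 and 143 CPM in FF_TAC 2 and 3, against 133 and 137 CPM in FF_TAC 1 and 4. In KO_TAC 1 the sum was 109 CPM, and in KO_TAC 2, 3 and 4 it was 84.4, 82.6 and 102 CPM.

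**Figure D3:**
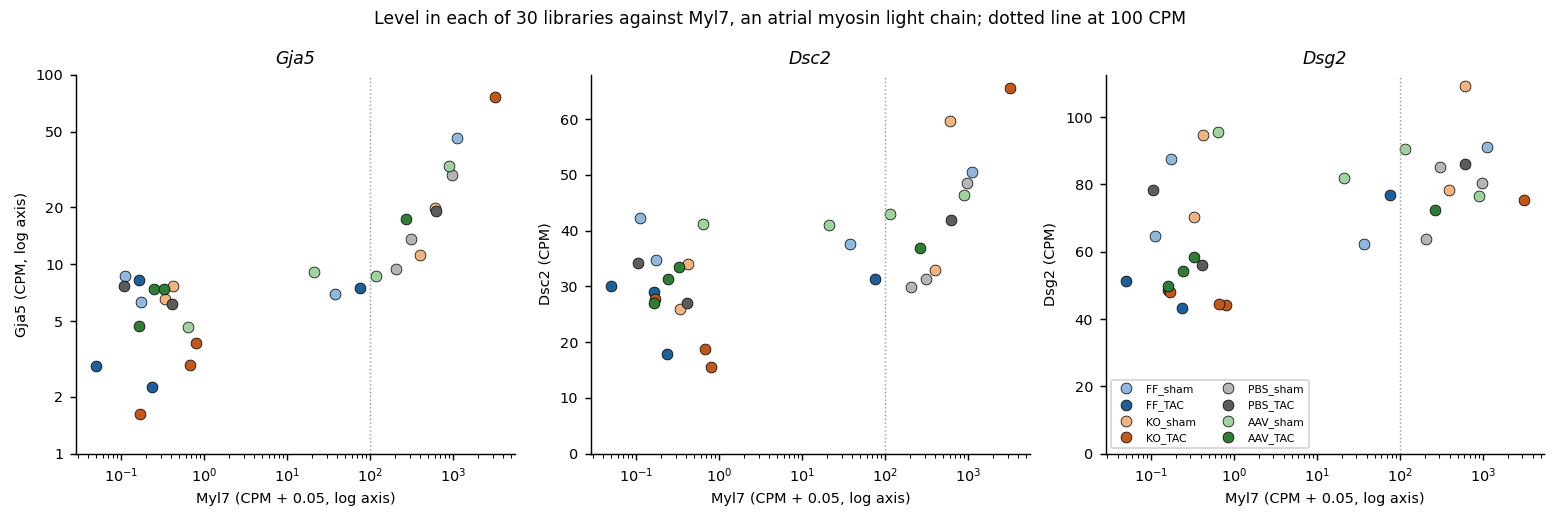
Level of Gja5 (log axis), Dsc2 and Dsg2 in CPM against Myl7 (log axis, CPM plus 0.05) in each of the 30 libraries, coloured by group; the dotted line is at 100 CPM. Gja5 climbs with Myl7 to the right of the line, up to 76.5 CPM in KO_TAC 1, and the highest Dsc2 values lie there as well.

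The upstream sequences of Gja1 and Gja5 are shown because these connexins had unlike patterns over the hearts. T-box factors and NKX2-5 are known regulators of Gja5. The 250 bases before the RefSeq starts (GRCm38.p6) are chr10:56377050-56377299, plus strand, for Gja1 and chr3:97032152-97032401, plus strand, for Gja5. The Gja5 stretch lies inside the GENCODE gene, which begins farther upstream. The Gja5 stretch holds 1 AAGTG, in capitals, a motif that 40.7% of all promoters of this length hold, and no AGGTGT, which 11.8% hold. The Gja1 stretch holds neither on either strand. Of the other members with a promoter in the table, Dsp and Jup hold 1 AGGTGT each.
Gja1: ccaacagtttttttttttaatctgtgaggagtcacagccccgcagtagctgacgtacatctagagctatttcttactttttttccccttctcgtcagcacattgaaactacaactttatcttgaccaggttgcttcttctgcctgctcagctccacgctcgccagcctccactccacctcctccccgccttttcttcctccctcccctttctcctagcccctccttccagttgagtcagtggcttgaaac
Gja5: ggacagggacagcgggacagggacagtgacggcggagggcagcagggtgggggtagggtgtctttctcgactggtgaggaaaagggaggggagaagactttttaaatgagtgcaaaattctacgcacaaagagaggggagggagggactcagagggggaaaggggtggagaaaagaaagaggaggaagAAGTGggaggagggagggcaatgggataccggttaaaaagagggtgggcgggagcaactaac

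Gjc1 encodes connexin 45, the slow-conducting connexin of the sinus and atrioventricular nodes (ENSMUSG00000034520, chr11:102799579-102819700, minus strand). It was low and steady, at 17.1 to 25.8 CPM in 29 libraries and 31.3 CPM in PBS_sham 3. No comparison gave it a log2 fold change beyond 0.13 in size. Across the TAC pairs these were -0.05 (SE 0.13) in the floxed controls, -0.06 (SE 0.13) in the knockout, 0.09 (SE 0.17) with saline and 0.13 (SE 0.14) with the vector, none called.

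In the saline mice, comparisons with PBS_sham turned on PBS_sham 3. Dsp was 1001 and 825 CPM in PBS_sham 1 and 2 and 203 CPM in PBS_sham 3, which is 4.5-fold below the mean of the other 2. Cdh2 was 254, 222 and 69.0 CPM (3.45-fold below), Gja1 2.24-fold, Pkp2 1.8-fold and Jup 1.68-fold below. These 5 genes were lower in PBS_sham 3 than in any other of the 30 libraries. Gjc1, at 31.3 CPM, and Tjp1, at 84.0 CPM, were higher there than in any other library, and Dsg2, Dsc2 and Gja5 were inside the range of the rest.

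Heart muscle transcripts moved with these 5 genes in that library. Actn2 was 3.56-fold and Tnnt2 1.84-fold below the other PBS_sham mean, and Cdh5, the endothelial cadherin gene, was 1.68 times that mean. PBS_sham 3 also had the highest sums of the smooth muscle and endothelial marker lists. Cell make-up and RNA content per cell cannot be told apart in it.

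**Figure D4:**
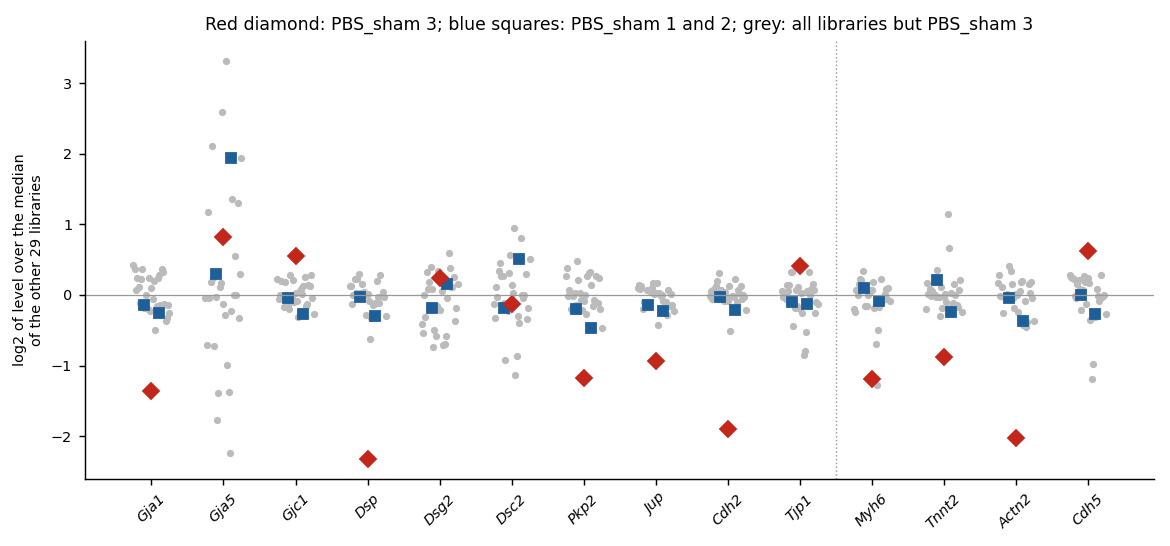
Log2 level of the 10 genes, and of Myh6, Tnnt2, Actn2 and Cdh5 to the right of the dotted line, in each library relative to the median of the 29 libraries other than PBS_sham 3. The red diamond is PBS_sham 3, blue squares are PBS_sham 1 and 2, and grey points are all others. Dsp at 203 CPM and Cdh2 at 69.0 CPM lie far below all others, and Tjp1 at 84.0 CPM lies above them.

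PBS_TAC hearts had 1235, 1011 and 1048 CPM of Dsp, 196, 150.2 and 192 CPM of Pkp2, and 281, 247 and 258 CPM of Cdh2. Dsp and Pkp2 did not overlap PBS_sham, 2 of 10 members where 14.5% of all genes did not overlap. The log2 fold changes were 0.71 for Dsp (SE 0.40, adjusted p 0.338), 0.71 for Pkp2 (SE 0.22, unadjusted p 0.0056, adjusted p 0.172) and 0.54 for Cdh2 (SE 0.33, adjusted p 0.372). Without PBS_sham 3 they were 0.27, 0.47 and 0.14, with adjusted p of 0.34, 0.146 and 0.55. Without PBS_sham 1 in its place, Pkp2 was called (0.94, adjusted p 0.0296). Gja1 gave 0.24 (SE 0.26, adjusted p 0.592) with all hearts and -0.07 without PBS_sham 3.

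AAV_sham against PBS_sham showed the same dependence. Dsp gave 0.79 (SE 0.38, adjusted p 0.25), Cdh2 0.69 (SE 0.31, adjusted p 0.234) and Pkp2 0.52 (SE 0.20, adjusted p 0.197). Without PBS_sham 3 they were 0.35, 0.29 and 0.27 (adjusted p 0.313, 0.297 and 0.435). Gja1, Dsp and Cdh2 were the 3 of 10 members without overlap, where 10.7% of all genes did not overlap. Without PBS_sham 1, Gja1 (0.88, adjusted p 0.0452) and Pkp2 (0.75, adjusted p 0.0348) passed the threshold.

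In mean CPM per kilobase of merged exons, Dsp stood at rank 1 and Jup at rank 2 in all 8 groups, with Gjc1 at rank 9 and Gja5 at rank 10. The hearts of Dsp and Jup overlapped in PBS_sham. Those of Jup and Gja1 overlapped in KO_sham, KO_TAC, PBS_sham and AAV_sham. In FF_sham the levels were 99.5 ± 9.08 for Dsp, 49.8 ± 3.04 for Jup, 35.6 ± 4.78 for Gja1, 32.4 ± 2.09 for Cdh2 and 28.6 ± 1.69 for Pkp2 (SD, n = 4). Below a gap came Dsg2 at 9.25 ± 1.81, Dsc2 at 7.82 ± 1.31, Tjp1 at 7.81 ± 0.817, Gjc1 at 4.31 ± 0.435 and Gja5 at 2.97 ± 3.40 (SD, n = 4). The hearts of Gja1, Cdh2 and Pkp2 overlapped from neighbour to neighbour, as did those of Dsg2, Dsc2 and Tjp1 and those of Gjc1 and Gja5.

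The order at the top depended on the length used. With the longest transcript of each gene, Dsp had 100.2 ± 9.14, Jup 100.0 ± 6.10 and Gja1 93.8 ± 12.6 CPM per kilobase in FF_sham (SD, n = 4), and the ranges of neighbours overlapped. These 3 genes shared the first 3 places in all 8 groups by that measure. Gja5 was last by both measures.

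**Figure D5:**
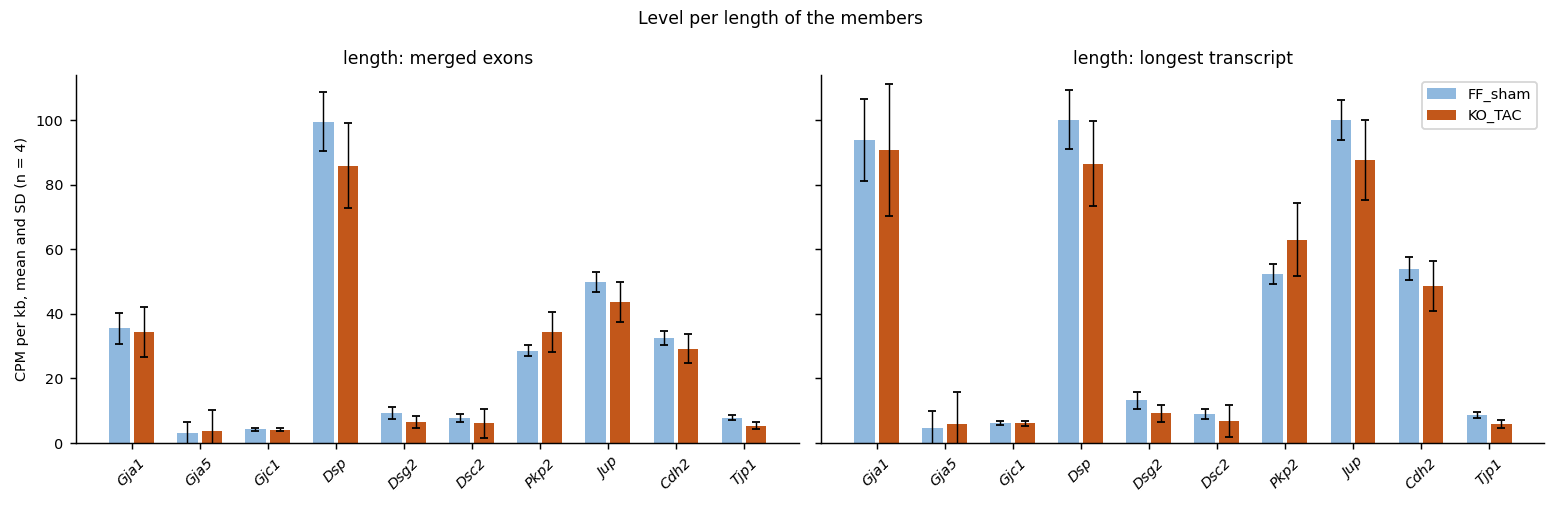
Level of each gene per kilobase in FF_sham (blue) and KO_TAC (orange), as mean and SD of 4 hearts, with length taken from merged exons (left) or the longest transcript (right). Dsp leads at 99.5 CPM per kilobase on the left and shares the top with Jup and Gja1 on the right.

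Other genes of the junctions were read from lists of names. For KO_TAC against KO_sham their counts stand beside 14.3% of all genes called higher and 11.5% lower and a median of 0.02 over all genes. Against FF_TAC these were 7.53%, 6.8% and 0.04. Of 7 tested connexin and pannexin genes besides the members, 2 were higher in KO_TAC than in KO_sham, beside 14.3% of all genes. Panx1, which forms large membrane channels that release ATP, rose from 2.19 ± 0.611 to 12.5 ± 2.85 CPM (SD, n = 4; log2 fold change 2.51, SE 0.33, adjusted p 0.000527). Gjb5 rose at a very low level, from 0.145 ± 0.0817 to 2.0 ± 1.30 CPM (SD, n = 4; 3.72, adjusted p 0.00576). Both were also called higher in KO_TAC than in FF_TAC, by 1.64 for Panx1 (adjusted p 0.00385) and 3.33 for Gjb5 (adjusted p 0.0113). The list median was 0.04 against KO_sham and 0.38 against FF_TAC.

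Of 5 other desmosomal or desmosome-linked genes tested, 2 were higher in KO_TAC than in KO_sham and none lower, beside 14.3% and 11.5% of all genes. Des, the gene of desmin, the filament that desmoplakin anchors, rose by 1.60 (SE 0.35, adjusted p 0.00631), from 2322 ± 254 to 7013 ± 4074 CPM (SD, n = 4). Perp rose by 0.75 (SE 0.20, adjusted p 0.017). Against FF_TAC the called genes were Des (1.15, adjusted p 0.0377), Perp (0.68, adjusted p 0.0381) and Pkp4 (0.51, adjusted p 0.0354), all higher. The list medians were 0.39 and 0.51.

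Of 16 catenin and adherens junction genes, 1 rose and 3 fell from KO_sham to KO_TAC, near the 25.8% called over all genes, with a list median of 0.05. Afdn, the gene of afadin, which ties nectins to actin, fell by 0.82 (SE 0.14, adjusted p 0.00211), from 91.3 ± 5.37 to 51.2 ± 4.13 CPM (SD, n = 4). Cdh5 fell by 0.56 (adjusted p 0.0352) and Jcad by 0.50 (adjusted p 0.0176), both genes of endothelial junctions, while Sorbs2 rose by 0.65 (adjusted p 0.0125). Against FF_TAC 4 were lower and none higher: Afdn (-0.78, adjusted p 0.00277), Cdh5 (-0.69, adjusted p 0.0212), Jcad (-0.50, adjusted p 0.0264) and Ctnna3 (-0.88, adjusted p 0.0416), the gene of the heart's alpha-T-catenin. The list median there was 0.15.

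Of 12 other tight junction genes, 2 rose and 1 fell from KO_sham to KO_TAC, near the 25.8% called over all genes, with a list median of 0.23. F11r, a junctional adhesion molecule gene, was among those that rose, by 0.36 (adjusted p 0.0298). Jam2, an endothelial adhesion molecule, fell by 0.37 (adjusted p 0.0339). Against FF_TAC 2 were higher, among them Ocln (1.87, adjusted p 0.0333, at 1.14 ± 0.705 CPM in KO_TAC; SD, n = 4), and none was lower.

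Of 23 muscle and channel proteins of the disc, 6 rose and 4 fell from KO_sham to KO_TAC, beside 25.8% called over all genes, with a list median of 0.12. Xirp2, an actin-binding Xin repeat protein of the disc, rose by 2.16 (SE 0.39, adjusted p 0.00261). Synpo2l rose by 1.72 (SE 0.24, adjusted p 0.000705) and Flnc, the gene of filamin C, by 1.12 (SE 0.15, adjusted p 0.000528). Kcnj2, the gene of the inward rectifier potassium channel that sets the resting potential, fell by 1.09 (SE 0.24, adjusted p 0.00618). Against FF_TAC 3 were higher and 1 lower, with a list median of -0.09. Synpo2l (0.85, adjusted p 0.026) and Tmem43 (0.36, adjusted p 0.0147) were among the higher, and Tmem65 (-0.61, adjusted p 0.00432) was lower.

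Of 21 transcriptional regulators of disc genes, 3 rose and 3 fell from KO_sham to KO_TAC, near the 25.8% called over all genes, with a list median of 0.08. Tbx2, a T-box repressor of connexin genes, fell by 0.99 (SE 0.30, adjusted p 0.0269) at a low level, to 5.92 ± 2.67 CPM (SD, n = 4). Hopx fell by 0.79 (adjusted p 0.0104) and Mef2a by 0.62 (adjusted p 0.00686), while Nkx2-5 rose by 0.62 (SE 0.19, adjusted p 0.0269). Against FF_TAC 3 were higher, Zeb2 (0.67, adjusted p 0.00177), Tbx20 (0.42, adjusted p 0.0337) and Snai1 (0.86, adjusted p 0.0456), and none lower.

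Of 14 genes of connexin trafficking and turnover, 3 rose and 3 fell from KO_sham to KO_TAC, beside 25.8% called over all genes, with a list median of 0.18. Cnst, the gene of consortin, which helps connexins leave the Golgi, fell by 0.78 (SE 0.19, adjusted p 0.0116). Nedd4, the gene of a ubiquitin ligase of connexin 43, fell by 0.43 (adjusted p 0.0342). Mapre1, the gene of EB1, which guides microtubules that deliver connexin 43 to the disc, rose by 0.65 (SE 0.13, adjusted p 0.00419), and Becn1 rose by 0.35 (adjusted p 0.015). Against FF_TAC, Mapre1 (0.46, adjusted p 0.0298) and Src (0.89, adjusted p 0.00754) were higher and Wwp1 (-0.32, adjusted p 0.0211) was lower. No gene of any of these 7 lists was called by edgeR in the other 8 comparisons, in each of which at most 7 of all genes were called. These list calls rest on the same KO_TAC libraries as the member calls, with the haemoglobin, endothelial and fibroblast values given with Tjp1.

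The genes whose pattern over the 30 libraries was most like that of a member were found by the mean absolute difference of log2 CPM after removing each cohort's mean. For Gja5 these were Cntfr (0.40), Podn (0.40), Stard10 (0.41) and Rgs7 (0.42), out of 602 genes that varied enough. For Dsp they were Grsf1, Dlat, Kif16b and Prkaa2, each at 0.11 (6590 genes), and for Gja1 they were Yae1d1 (0.16), Tob1 (0.17), Pip5k1b (0.17) and Gpd1l (0.17), out of 9425 genes. The 30 libraries included PBS_sham 3, with its low Dsp and Gja1, and the 11 libraries with at least 100 CPM of Myl7. The part of these libraries in the patterns was not tested.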

How the data were processed

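Poly(A) RNA of 30 mouse hearts was sequenced paired-end from directional libraries, per the labels' protocols. The deposited values are whole-number counts per gene, made with HISAT2 2.1.0 and featureCounts of Subread 1.5.1 on GRCm38, per the submitters' processing notes; the strand setting and annotation release are not given in the sources used here. Symbols were matched through GENCODE M21 for 55227 of 55487 identifiers, and identifiers without a symbol held 0.00336% of the counts. Coordinates are of GRCm38. Library totals were 14839758 to 22070373 counts. Groups came from the genotype and treatment labels. The titles of KO_TAC name both TAC and sham, and the other labels and column names give TAC.

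Each cohort was fitted apart with edgeR 4.0.16 in R 4.3.3 (TMM, filterByExpr, robust quasi-likelihood F test, 1 mean per group, two-sided), which tested 15596 genes in 16 floxed libraries and 15745 in 14 AAV9 libraries. P-values were adjusted by Benjamini-Hochberg over all genes tested. Levels are CPM with TMM over all 30 libraries. The edgeR fit of the floxed cohort was also run on simulated counts. These had the same spread for every gene and no outlying libraries, so they do not bear on the libraries that stood apart. Alternatives were DESeq2 1.42.0, limma 3.58.1 voom with sample weights, RLE size factors, no filter or a mean of 5 CPM, only the groups compared, a replicate block, a Myl7 covariate, a haemoglobin term, and each library left out. Fits of libraries under 100 CPM of Myl7, and without KO_sham 2, FF_TAC 2 and FF_TAC 3, were chosen after seeing the data.

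The members, gene lists and marker lists were chosen with earlier results of these data known. All members are named; of each list, the called genes, at most the 4 largest changes with a mean of at least 5 CPM, and further genes where 5 or fewer were called; some list genes are counted but not reported by name here. No libraries were duplicates by chi-square of their counts. The labels do not say that replicates are separate animals, so p-values measure the spread between these samples. The microRNA work of the series was not analysed here. PCR copies are not independent, so counting error alone understates the error.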

Additional observations from a re-analysis of the deposited data

Results flagged for a closer look

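Single libraries far from the rest of their group were looked for in the 60 combinations of a gene and a group of 4 hearts, and 9 were found where chance alone gives about 1 in 20, or 3.0. Of these, 5 were KO_TAC 1, the heart with the most Myl7. It had 76.5 CPM of Gja5 against 1.63 to 3.85 in the other KO_TAC hearts and 75.4 CPM of Dsg2 against 44.3 to 48.2. It was low in Pkp2, with 134.8 CPM against 196 to 204, in Jup, with 221.9 CPM against 296 to 306, and in Cdh2, with 180.1 CPM against 253 to 257. Gja5 also stood out at 46.3 CPM in FF_sham 2 against 6.28 to 8.60 and at 33.1 CPM in AAV_sham 2 against 4.64 to 9.06, both hearts with at least 100 CPM of Myl7. FF_TAC 3, a haemoglobin-low heart, had the highest Gja1 of its group at 359 CPM, against 314 to 322, and the highest Dsp at 1131 CPM, against 1037 to 1052.

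Dsp after TAC lay on opposite sides of sham in the floxed genotypes. All FF_TAC hearts were above all FF_sham hearts and all KO_TAC hearts were below all KO_sham hearts. The interaction term was -0.41 with an adjusted p of 0.303 in edgeR, so the difference between the genotypes did not pass the threshold.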

How the results depend on the processing

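The alternatives were followed for 33 of the 100 member results. These were the results with an unadjusted p under 0.05 in edgeR and further ones picked among those described here. Of their 595 values under the alternatives, 540 kept their direction and their side of the threshold, 16 lost a call, 17 gained one and 22 changed sign. For KO_TAC against KO_sham, where 2 members were called, limma voom called 5, the fit without KO_sham 2, FF_TAC 2 and FF_TAC 3 called 1, the haemoglobin term 0, and the fits that each left out 1 library 1 to 4 (4 without KO_TAC 1). For KO_TAC against FF_TAC, with 1 called, DESeq2 and the filter at 5 CPM called 2 each (Tjp1 and Dsp), while the haemoglobin term, only the groups compared and haemoglobin-low libraries alone called 0, and leaving out 1 library gave 0 to 1. For the interaction of knockout and TAC, limma voom and the fit without those 3 libraries called 1 each. For AAV_TAC against AAV_sham, limma voom and libraries under 100 CPM of Myl7 called Dsg2 (1 each), and only the groups compared called Dsc2 (1). Leaving out 1 library gave 0 to 1 for PBS_TAC against PBS_sham and 0 to 2 for AAV_sham against PBS_sham. The cause of these shifts was not tested.

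The sign changes were mostly of Gja5, which was not called in any fit run. For KO_TAC against KO_sham its log2 fold change was -1.37 in limma voom, -1.35 in libraries under 100 CPM of Myl7 and -0.0015 with the Myl7 covariate, and -2.01 to 1.35 as each library was left out. For KO_TAC against FF_TAC it was -0.69 and -0.91 by the first 2 of these, and -0.91 to 2.43 as libraries were left out; for the interaction -0.57 and -0.86, and -0.30 to 3.07. With the Myl7 covariate it was 0.48 for PBS_TAC against PBS_sham and 0.36 for AAV_TAC against AAV_sham, where leaving out 1 library gave -1.09 to 0.31. Dsg2 for PBS_TAC against PBS_sham was 0.0096 in limma voom and 0.11 with the Myl7 covariate, and -0.16 to 0.14 as libraries were left out. Dsc2 for KO_TAC against KO_sham was 0.051 without the 3 libraries and -0.88 to 0.052 as libraries were left out. Gja1 for PBS_TAC against PBS_sham ran from -0.067 to 0.46 in the same way. Over all genes, KO_TAC against KO_sham gave 4018 calls, 277 with the haemoglobin term, 8336 in limma voom and 1968 to 6410 as libraries were left out. KO_TAC against FF_TAC gave 2236, 0 among haemoglobin-low libraries alone, 6002 in limma voom and 1123 to 3857 as libraries were left out. In the other comparisons the highest counts, beside edgeR's, were 161 in DESeq2 beside 0 for FF_TAC against FF_sham, 2930 beside 7 for the interaction of knockout and TAC, 367 beside 1 for AAV_TAC against AAV_sham, 97 beside 6 for AAV_TAC against PBS_TAC and 30 beside 0 for KO_sham against FF_sham (all limma voom), 16 in DESeq2 beside 1 for the interaction of vector and TAC, and, as libraries were left out, 1789 beside 5 for PBS_TAC against PBS_sham and 2813 beside 2 for AAV_sham against PBS_sham. PBS_sham has no library under 100 CPM of Myl7, so that fit could not be run for its comparisons.

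Replicate numbers were used as a block as an alternative. Same-numbered libraries of different groups had residual correlations of -0.364 to 0.447 in the floxed cohort (8 of 24 over 0.1) and -0.379 to 0.367 in the AAV9 cohort (7 of 19 over 0.1), and 6 of 30 libraries matched best with their own number, so the numbers were not taken as pairs. The replicate block changed 0 of 100 member calls; Gja5 for KO_TAC against KO_sham became -0.0010.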
